A study of Mus musculus with 8 samples.

Results

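*Adssl1* and 7 enzymes that share its substrates or act beside it in purine nucleotide synthesis (*Adss*, *Adsl*, *Ampd2*, *Ampd3*, *Impdh1*, *Impdh2* and *Gmps*) were examined in cultured mouse macrophages loaded with acetylated low density lipoprotein (Ac-LDL). The array annotation holds 30789 gene symbols, and these 8 were taken by symbol with every probe that carries one of them, 15 probes of 45281. *Adssl1* was selected on its own values: the study lists it among the genes that were higher after Ac-LDL on these arrays, with a fold limit of 1.4, so its treatment difference is given as a description and was not tested. The other 7 genes were taken for their place in the pathway.

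The arrays came from thioglycollate-elicited peritoneal macrophages of C57/BL6 mice aged 8 weeks, that is, cells recruited to the peritoneum by injection of an irritant. 4 control samples were mock treated and 4 samples received Ac-LDL at 120 μg per ml, both for 24 h. Each group carries the replicate numbers 1 to 4, and the labels call them biological replicates without saying whether a number stands for 1 mouse or a pool. Replicates 1 and 2 of both groups were run on one bead chip slide and replicates 3 and 4 on another. A probe counted as detected on an array at a detection p of at most 0.05, a rank among the negative control beads, and 36.8% to 38.5% of the probes did so per array. Macrophage transcripts were present, with 6 of 7 marker genes on the array tested and *Cd68* and *Lyz2* detected on all 8 arrays, while the probe of *Msr1*, a scavenger receptor, was detected on 0. Of the mesothelial and fibroblast markers, *Dcn*, *Col1a1*, *Col3a1* and *Upk3b* were detected on all 8 arrays as well. *Msln*, on the same list, was detected on 3 and was not tested. All samples are bulk RNA, in which fewer cells of a type and less RNA per cell cannot be told apart.

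Purine nucleotides are built up to inosine monophosphate (IMP), from which the path forks. Adenylosuccinate synthase joins IMP to aspartate, and adenylosuccinate lyase, encoded by *Adsl*, releases fumarate and leaves AMP. Mice have a pair of synthase genes: *Adssl1* is best known from skeletal and heart muscle, and *Adss* is the form found in most other tissues. The AMP deaminases, among them those of *Ampd2* and *Ampd3*, turn AMP back into IMP, which closes the purine nucleotide cycle. On the other arm, the IMP dehydrogenases of *Impdh1* and *Impdh2* carry out the rate-limiting step towards GMP, and GMP synthase, the product of *Gmps*, completes it.

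The 3 *Adssl1* probes lie at opposite ends of the transcript, which is why their sequences are shown together with that of the *Adss* probe. The deposited annotation, which names no genome build, places the probe with the highest intensity at chr12:113879469-113879518 on the plus strand, from base 1652 of the transcript. The next lies at chr12:113879281-113879330, from base 1464. The third, at chr12:113858310-113858359, begins at base 11 and holds an ATG from its base 21, printed in capitals. The *Adss* probe lies at chr1:179613172-179613221 on the minus strand, from base 606 of its transcript. The longest run of bases that the *Adss* probe shares with an *Adssl1* probe, on either strand, was 6. The first 30 of the 50 bases are shown, except for the third probe, which is whole.
*Adssl1* ILMN_2958099: cagaggccttcactgactgattgtcacatg
*Adssl1* ILMN_1245079: cgagaccctcggcagtgccaccaacacctt
*Adssl1* ILMN_2711688: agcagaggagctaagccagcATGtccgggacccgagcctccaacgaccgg
*Adss* ILMN_2957614: aggggattggccctgtgtattcctctaaag

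Of the 15 probes, 11 passed the filter on dim probes (detected on at least 4 of the 8 arrays), and each of the 8 genes kept at least 1 of them. Probe ILMN_1255090 of *Adsl*, ILMN_1234484 of *Ampd2* and ILMN_1212698 of *Ampd3* were detected on 0 arrays, with intensities of 30.6 to 40.4, and probe ILMN_2680540 of *Impdh1* was detected on 3. The last shares a run of 33 bases with a tested *Impdh1* probe, so that these are not independent measurements. A further probe, which the annotation lists as *Adss2*, a synonym of *Adss*, was detected on 0 arrays and is not a member. The *Adsl* and *Impdh2* probes carry a symbol only, with no transcript or position. All 3 *Adssl1* probes were detected on all 8 arrays: the deposited intensity of the brightest ran from 2629 to 6231 and that of the 5′ probe from 80.6 to 230.6, where the median over all probes of an array was 42.5 to 46.4. The bead standard error, which measures the spread of a probe over its beads on 1 array, was between 2.05% and 7.11% of the intensity for the tested member probes, with 20 to 61 beads behind each value.

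*Adssl1* was higher with Ac-LDL in each of the 4 replicate pairs, by all 3 probes. On the control arrays, the normalized log2 intensity of the brightest probe was 11.31, 11.51, 11.95 and 12.20 for replicates 1 to 4. On the Ac-LDL arrays it was 12.08, 12.14, 12.45 and 12.66. The ranges overlapped, as control replicates 3 and 4 lay near Ac-LDL replicates 1 and 2, but within each slide both Ac-LDL arrays lay above both control arrays. The control mean was 11.74 ± 0.41 (SD, n = 4) and the Ac-LDL mean 12.33 ± 0.27 (SD, n = 4), which differ by 0.59 on the log2 scale, or 1.5-fold. For the probe ILMN_1245079, a short way upstream, the means were 10.16 ± 0.49 (SD, n = 4) and 10.69 ± 0.35 (SD, n = 4), which differ by 0.52. The 5′ probe had 6.45 ± 0.58 (SD, n = 4) without and 7.23 ± 0.45 (SD, n = 4) with Ac-LDL, which differ by 0.78. Over the pairs, the log2 difference was between 0.46 and 0.76 by the brightest probe, between 0.34 and 0.74 by the next and between 0.46 and 1.18 by the 5′ probe. Both ends of the transcript thus differed in the same direction. Over the 8 arrays, with each slide mean subtracted, the brightest probe had a Pearson correlation of 0.94 with each of the other 2 (n = 8 arrays). The points share slides, normalization and treatment groups, and the treatment difference was not subtracted.

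Skeletal muscle transcripts were measured beside this result, since muscle is where *Adssl1* is best known. Of 11 muscle markers on the array, 3 were tested (*Tnni2*, *Mylpf* and *Actn3*), with log2 differences of 0.05 to 0.14 between Ac-LDL and control. *Acta1*, detected on 3 arrays, had -0.42, and *Mb*, detected on 2, had 0.09; neither was tested. *Ckm*, *Myh1*, *Myh4*, *Tnnt3*, *Tnnc2* and *Pygm* were detected on 0 arrays, and *Ampd1*, the AMP deaminase of muscle, had no tested probe. The summed linear intensity of the muscle list was 362.6 to 416.9 on the control and 379.0 to 403.4 on the Ac-LDL arrays. For a list of neutrophil markers the summed intensity was 616.8 to 676.8 on the control and 710.3 to 786.4 on the Ac-LDL arrays. These ranges did not overlap, which held for 3.8% of all tested probes, and the sums of the other marker lists overlapped. 1 of its 4 genes on the array was tested, *S100a8*, with a log2 difference of 0.24 (adjusted p = 0.845 from limma). *S100a9*, *Mpo* and *Camp* were detected on 0 arrays, so the sum rests mainly on *S100a8*. The part of muscle cells or neutrophils in the *Adssl1* difference was not tested.

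**Figure D1:**
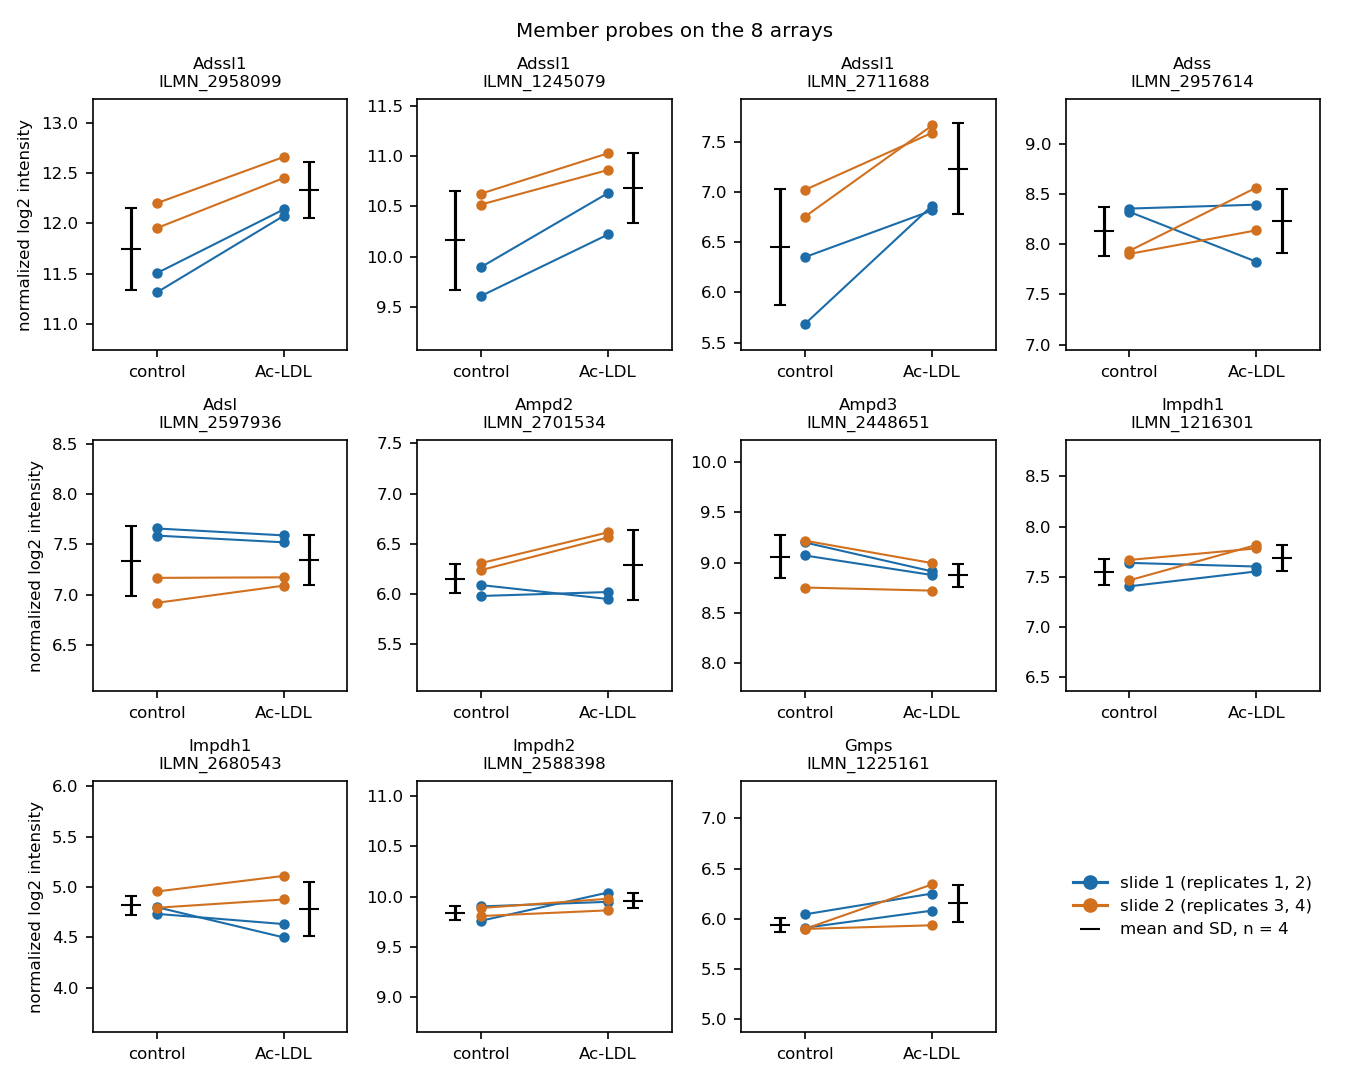
Normalized log2 intensity of the 11 tested member probes on each array. Lines join arrays of the same replicate number, coloured by slide; black bars give the mean and SD of 4 arrays, and each panel spans 2.5 log2 units. The 3 *Adssl1* probes go up along every line, and the slide 2 arrays lie above the slide 1 arrays of the same group.

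The paralog *Adss* varied without a common direction. Its log2 intensity was 8.35, 8.32, 7.93 and 7.90 on control arrays 1 to 4 and 8.39, 7.83, 8.56 and 8.14 on the Ac-LDL arrays. It was higher with Ac-LDL in 3 of the 4 pairs and lower in replicate 2, and the pair differences ran from -0.50 to 0.63 on the log2 scale. The mean difference was 0.10 (standard error 0.17, 95% interval -0.28 to 0.49, adjusted p = 0.990 from limma) and turned to -0.0259 with median centring in place of quantile normalization. That centring also moved the median over all tested probes to -0.0911. On slide 1 the *Adss* difference was -0.23 and on slide 2 it was 0.43.

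Set beside each other within a pair, the *Adssl1* log2 difference exceeded that of *Adss* by 0.72, 1.13 and 0.23 in replicates 1, 2 and 4 and fell short of it in replicate 3 (-0.13). The mean excess was 0.49 ± 0.55 (SD over 4 pairs). It was 0.93 on slide 1 and 0.05 on slide 2, where *Adssl1* and *Adss* were higher with Ac-LDL by nearly the same amount. The excess was not tested, as *Adssl1* was selected on its rise.

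None of the 7 other members passed the test. Ac-LDL and control arrays were compared over all 17122 tested probes with limma's moderated test, and a probe was called at a Benjamini-Hochberg adjusted p under 0.05. 0 of the 8 tested probes of these genes were called, where 0.0409% of all tested probes were. At an unadjusted p under 0.05 the limma test passed 0 of these 8 probes and the methods' t-test, which was unpaired, 0. With the replicate number as a block, 0 were called, against 0.444% of all tested probes, and 1 of the 8 (12.5%), that of *Gmps*, had an unadjusted p under 0.05, as did 13.8% of all tested probes. In 0 of the 11 tested member probes, *Adssl1* included, did the ranges of the groups not overlap, compared with 3.8% of all tested probes.

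*Adsl*, the lyase that follows both synthases, had log2 intensities of 7.66, 7.59, 7.17 and 6.92 on control arrays 1 to 4 and 7.59, 7.52, 7.17 and 7.09 on the Ac-LDL arrays. Here the arrays parted by slide and not by treatment. The mean difference with Ac-LDL was 0.01 (standard error 0.18, 95% interval -0.40 to 0.42, adjusted p = 0.9997 from limma). *Adsl* was higher in 2 pairs and lower in 2. Median centring gave -0.10, beside a median of -0.0911 over all tested probes.

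The deaminases, which run the cycle back to IMP, gave differences of opposite sign that did not pass the test. *Ampd3* had log2 intensities of 9.07, 9.20, 8.75 and 9.22 on control arrays 1 to 4 and 8.88, 8.91, 8.72 and 8.99 on the Ac-LDL arrays. Each Ac-LDL array lay below its control, by 0.03 to 0.29, though the groups overlapped through control replicate 3. The *Ampd3* difference was -0.18 (standard error 0.12, 95% interval -0.46 to 0.09, adjusted p = 0.961 from limma), and -0.30 with median centring. *Ampd2* had log2 intensities of 5.98, 6.09, 6.31 and 6.24 on control arrays 1 to 4 and 6.02, 5.95, 6.61 and 6.56 on the Ac-LDL arrays. Both Ac-LDL arrays of slide 2 exceeded their controls, by 0.31 and 0.33, and those of slide 1 differed from theirs by 0.04 and -0.14. The mean *Ampd2* difference was 0.13 (standard error 0.17, 95% interval -0.24 to 0.50, adjusted p = 0.987 from limma). It was 0.04 with median centring, and 0.02 to 0.25 with 1 array left out.

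On the guanine arm, the brightest *Impdh1* probe had log2 intensities of 7.41, 7.64, 7.47 and 7.67 on control arrays 1 to 4 and 7.55, 7.60, 7.82 and 7.78 on the Ac-LDL arrays. The groups overlapped, and the mean difference was 0.14 (95% interval -0.09 to 0.38, adjusted p = 0.967 from limma), or 0.03 with median centring. The 5′ *Impdh1* probe ILMN_2680543, which was detected on 5 arrays and lay near background, gave -0.04 (adjusted p = 0.994 from limma).

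*Impdh2* had the lowest standard error of the 7 genes (0.09), with log2 intensities of 9.76 to 9.90 on the control and 9.86 to 10.04 on the Ac-LDL arrays. Its mean difference was 0.12 (95% interval -0.07 to 0.31, adjusted p = 0.967 from limma) and was higher in 4 of 4 pairs, although it turned to -0.00496 with median centring and was then higher in 1 of 4. *Gmps* had log2 intensities of 6.04, 5.91, 5.90 and 5.90 on control arrays 1 to 4 and 6.25, 6.08, 6.34 and 5.94 on the Ac-LDL arrays. It was higher with Ac-LDL in 4 of 4 pairs and its groups overlapped only where control replicate 1 exceeded Ac-LDL replicate 4. Its difference of 0.21 (standard error 0.11, 95% interval -0.03 to 0.45, adjusted p = 0.952 from limma) was the highest among the 7 genes by their brightest probe, and the adjusted p was 0.340 with the replicate block. With median centring the *Gmps* difference was 0.12, higher in 2 of 4 pairs. By the brightest probe, 2 of the 7 genes were higher in all 4 pairs and 1 was lower in all 4, where 11.5% and 10.3% of all tested probes were. With median centring 0 of the 7 were higher in all 4 pairs and 1 was lower, beside 3.36% and 18.3% of all tested probes. The median difference of the 7 genes was 0.12, and that of all tested genes with 1 probe each was -0.001. With median centring the median of the 7 was -0.00496 and that of all tested probes -0.0911.

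*Adssl1* also differed between the slides, in a contrast that its selection did not use. In a model with treatment and slide, the brightest probe was higher on slide 2 by 0.56 (standard error 0.10, 95% interval 0.34 to 0.78, adjusted p = 0.00411 from limma). The other *Adssl1* probes were higher on slide 2 by 0.67 (adjusted p = 0.00438 from limma) and 0.83 (adjusted p = 0.00281 from limma). The slide difference of the brightest probe was 0.67 among the control arrays and 0.45 among the Ac-LDL arrays, and thus about as large as the difference between the treatments. *Ampd2* was also higher on slide 2, by 0.42 (adjusted p = 0.0115 from limma), and *Adsl* was lower there by a log2 difference of -0.50 (adjusted p = 0.00362 from limma). For *Adsl* and *Ampd2* the arrays of the slides did not overlap. *Adss*, *Ampd3*, *Impdh1*, *Impdh2* and *Gmps* were not called between the slides, with differences of -0.09 to 0.27 over their tested probes. 5 of the 11 member probes were called in all, from 3 genes, and 23.6% of all tested probes were. The model counts the 4 arrays of a slide as independent, though they carry only 2 replicate numbers. If a number stands for a shared cell preparation, the slide intervals and p-values here and below are too narrow.

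The slides also differed in macrophage transcripts. Of 6 tested macrophage marker genes, 4 were called between the slides by every probe used, where 23.6% of all tested probes were called. These 4, *Emr1*, *Csf1r*, *Itgam* and *Mrc1*, were each higher on slide 2, by 1.19, 0.79, 1.01 and 1.07 on the log2 scale. *Cd68* (0.06) was not called. The lysozyme gene *Lyz2* is on the list with a probe under its older symbol *Lyzs* (0.61, called) and another under its present one (0.14, not called), so its probes disagreed. Outside this list, *Tnni2* was higher on slide 2 (0.78) and *Actn3*, *Col1a1* and *Lck* were lower there (-0.62, -0.41 and -0.54), each of them called by limma. The other tested markers outside it were not called. These were *Mylpf* (-0.21), *Ms4a1* (-0.09), *S100a8* (0.04), *Upk3b* (-0.17), *Col3a1* (0.29) and *Dcn* (-0.15). The summed linear intensity of the macrophage list was 40926 to 44432 on slide 1 and 50467 to 52911 on slide 2, while between the treatments the ranges were 40926 to 52825 for control and 42536 to 52911 for Ac-LDL. The part of these transcripts in the slide difference of *Adssl1*, *Ampd2* and *Adsl* was not tested. Slide and replicate number go together, so that the chip and the cell preparation cannot be told apart.

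**Figure D2:**
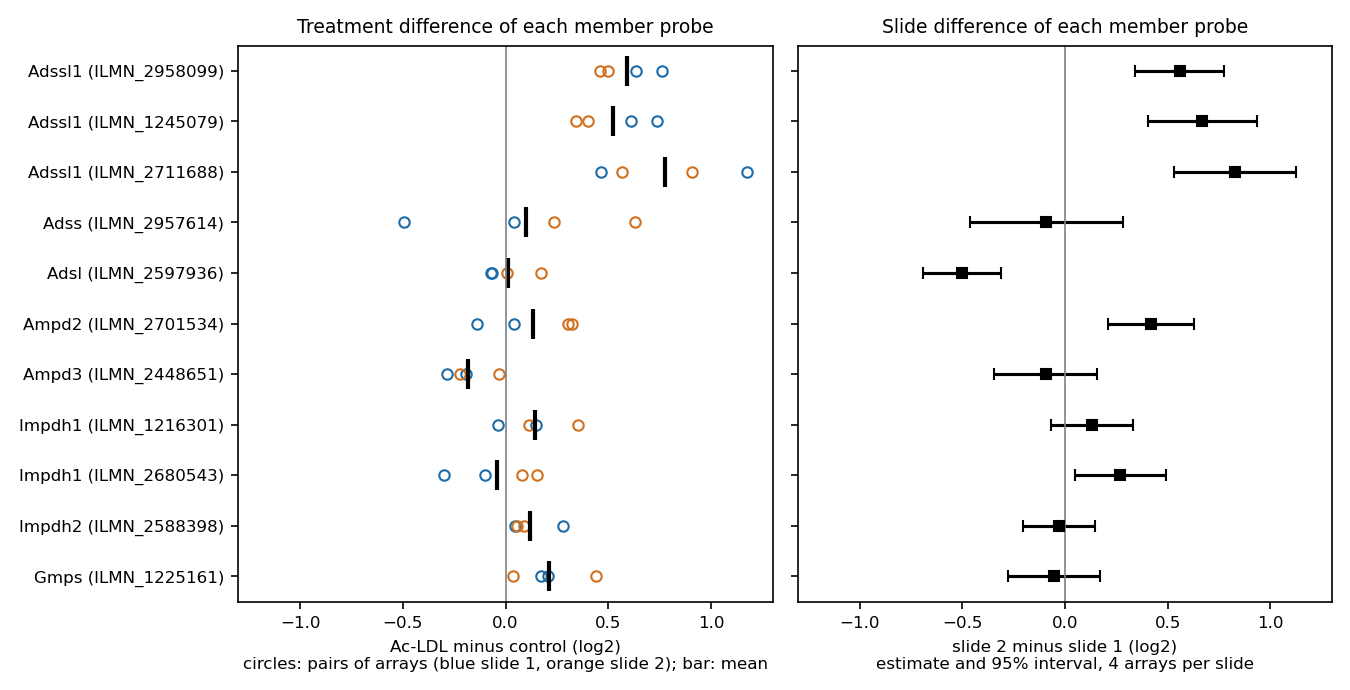
Left, the Ac-LDL minus control difference (log2) of each tested member probe, with circles for the 4 pairs of arrays (blue for slide 1, orange for slide 2) and a bar for the mean. Right, the slide 2 minus slide 1 difference (log2) with its 95% interval, in which the 3 *Adssl1* probes and *Ampd2* lie above 0 and *Adsl* below it. The interval counts the 4 arrays of a slide as independent.

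Whether the treatment difference itself changed from slide to slide was tested as an interaction of treatment and slide. By limma, 0 of the 17122 tested probes were called (0%), although 1435 had an unadjusted p under 0.05. Of the 11 member probes, 2 had an unadjusted p under 0.05. For *Adss* the treatment difference was higher on slide 2 than on slide 1 by 0.66 (standard error 0.28, adjusted p = 0.588 from limma), and for *Ampd2* by 0.37 (standard error 0.15, adjusted p = 0.584 from limma). For the brightest *Adssl1* probe it was lower on slide 2 by a log2 difference of -0.22 (standard error 0.19, adjusted p = 0.790 from limma). Only 2 arrays per group and slide stood behind these values.

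No gene of the wider purine pathway was called. Of 62 listed symbols, some of them older and newer spellings of 1 gene, 52 were on the array and 47 had a tested probe. By the brightest tested probe, 23 of the 47 genes had a value above 0 for Ac-LDL minus control and 24 a value below it. The median was -0.008 on the log2 scale, the range -0.33 to 0.39. With median centring, which lowers most values, 7 lay above 0 and 40 below, with a median of -0.0989. The limma test called 0 of them, with 3 (6.38%) at an unadjusted p under 0.05, where 5.21% of all tested genes were. With the replicate block it called 0, with 7 (14.9%) at an unadjusted p under 0.05 against 13.9% of all tested genes. The methods' t-test called 0, with 4 (8.51%) against 6.13%. These shares lay near those of all genes.

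*Gmpr*, the GMP reductase that returns GMP to IMP, had the highest value of this list. Its log2 intensity was 8.42 ± 0.18 (SD, n = 4) with Ac-LDL and 8.03 ± 0.13 (SD, n = 4) in the controls, without overlap. The difference of 0.39 had an adjusted p = 0.713 from limma, and of 0.101 once replicates were blocked, and was above 0 in 4 of 4 pairs. *Rrm2*, a ribonucleotide reductase subunit needed for DNA precursors, and *Ada*, which deaminates adenosine, followed with 0.30 and 0.27. *Shmt1*, a cytosolic serine hydroxymethyltransferase, had 0.21, *Pfas*, an enzyme of IMP synthesis, had 0.19, and *Hprt1*, which salvages hypoxanthine and guanine, had 0.18. At the other end were *Nt5e* (-0.33), the ectoenzyme CD73 that makes adenosine from AMP, and *Prpsap2* (-0.33), a protein associated with phosphoribosyl pyrophosphate synthetase. *Shmt2*, the mitochondrial serine hydroxymethyltransferase, had -0.26, and *Ppat*, the amidotransferase that commits ribose phosphate to purine synthesis, had -0.22. *Ak1*, an adenylate kinase, and *Nt5c2*, a cytosolic nucleotidase, both had -0.21. The adjusted p of these 12 genes was at least 0.713 from limma. The groups did not overlap for *Rrm2* and *Pfas* either, and 3.8% of all tested probes had no overlap. Of the 47 genes, 4 were higher in all 4 pairs, beside 11.5% of all tested probes.

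By role and by the sign of the value alone, IMP synthesis gave 4 genes higher and 5 lower (median -0.008), salvage 4 higher and 2 lower (0.02) and breakdown 3 higher and 6 lower (-0.09). The nucleotide kinases gave 4 higher and 4 lower (-0.005), and the enzymes of aspartate and fumarate, which feed and drain the synthase and lyase steps, 3 higher and 3 lower (-0.01). The one-carbon enzymes, which supply the purine ring, gave 2 higher and 2 lower (-0.005), and the ribonucleotide reductase subunits 2 higher and 1 lower (0.04). Of the enzymes that interconvert AMP, GMP and IMP, *Gmpr* was higher (0.39) and *Gmpr2* lower (-0.04). Each of these counts includes genes far inside the spread between arrays.

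**Figure D3:**
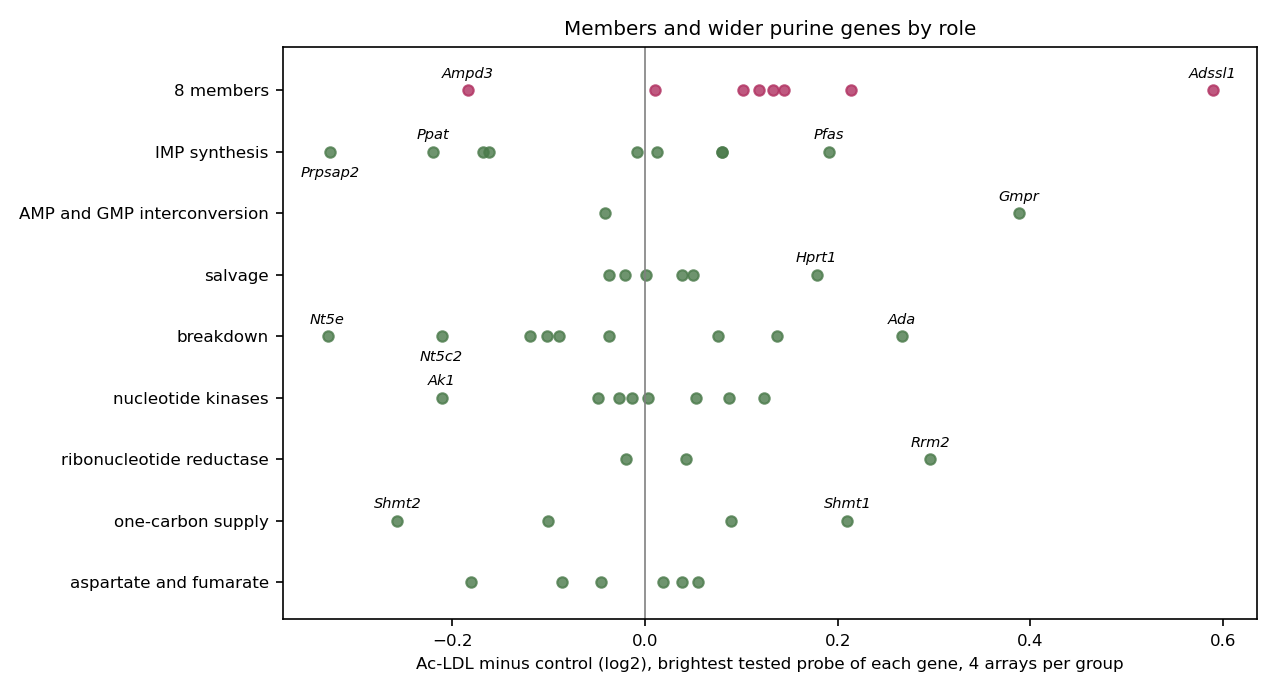
Ac-LDL minus control difference (log2) of the 8 members and of 47 wider purine genes, each by its brightest tested probe and grouped by role. *Adssl1*, which was selected on its rise on these arrays, lies at 0.59, so its place at the right is no result. *Gmpr*, at 0.39, is the highest of the other points.

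The pattern of the brightest *Adssl1* probe over the 8 arrays, after subtraction of the slide means, had a Pearson correlation of 0.67 with the brighter *Impdh1* probe but of -0.14 with the dimmer one. That with *Adss* was -0.04. Over all tested probes, the genes whose pattern was most like that of *Adssl1* were *D6Wsu176e* (r = 0.99), *Cfp* (0.99), *Gzf1* (0.99), *Dusp23* (0.99) and *P2ry13* (0.98). *Cfp* encodes properdin of the complement system and *P2ry13* a receptor for ADP. Their log2 differences between Ac-LDL and control were 0.17 to 0.74, with a direction that the choice by likeness to *Adssl1* fixed. These correlations are over 8 arrays that share slides and treatment groups, and they describe the arrays only.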

How the data were processed

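RNA of 8 macrophage samples was hybridized to Illumina Mouse WG-6 bead arrays and read in BeadStudio, per the submitters' processing notes. The authors deposited for each probe the mean bead intensity (described as non-normalized), a detection p-value, a bead standard error of the intensity and a bead number. The study's own normalized values were not used here, and the genome build of the probe coordinates is not given in the sources used here. Intensities were background corrected with the normexp model (negative controls inferred from the detection p-values, offset 16), quantile normalized and log2 transformed with neqc of limma 3.58.1 (R 4.3.3). Probes detected (p of at most 0.05) on at least 4 of 8 arrays were fitted with limma without a block, as the study's test was unpaired, and adjusted by Benjamini-Hochberg over all 17122 probes. A gene was represented by its tested probe with the highest mean. With 4 arrays a group, their number limits the precision. The p-values set a difference against the spread between these samples, which may be single mice or pools. The slide was tested in the model treatment + slide, and its interaction with treatment. Members and lists were chosen with earlier results of these data known. Named genes were the members, called genes of the purine list and up to 6 of its genes in each direction, and the 5 genes most like *Adssl1*. The B cell, T cell, eosinophil and mast cell marker lists had at most 1 tested gene each, and 0 of these were called between the treatments. Symbols are those of the deposited annotation, and the 8 members matched a RefSeq gene table by symbol.

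Deviations from the group mean of same-numbered arrays had a correlation across probes of 0.579, 0.479, 0.468 and 0.629 (replicates 1 to 4). Same-numbered arrays share a slide and slide means were not subtracted, so these values cannot show that the numbers pair the samples. The replicate block was therefore used only as an alternative. Other alternatives were the slide block, offset 50, no background correction, median centring, other filters, the methods' t-test and leaving out each array.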

Additional observations from a re-analysis of the deposited data

Results flagged for a closer look

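In 4 of 56 groups of 4 arrays examined, 1 array stood apart from the other 3, where chance gives about 2.8 (5% of groups). The gap made up 0.84 to 0.93 of the range of the 4 arrays, so it can be small on the log2 scale. The 4 arrays of a group lie on 2 slides, and *Rrm2*, *Ada* and *Ak1* were named for high or low differences on these arrays. The 5% is therefore only a rough guide. For *Gmps* this was control replicate 1, at 6.04 on the log2 scale against 5.90 to 5.91. For *Rrm2* it was control replicate 2, at 6.37 against 6.62 to 6.63. For *Ada* it was control replicate 1, at 5.37 against 5.09 to 5.14. For *Ak1* it was control replicate 2, at 6.90 against 7.18 to 7.22.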

How the results depend on the processing

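By the brightest probe, the *Adssl1* difference was 0.46 to 0.59 under the other normalizations, filters and fits and 0.45 to 0.74 with 1 array left out. Probe ILMN_1245079 gave 0.395 with median centring, and the 5′ probe gave 0.59 with offset 50. All 3 *Adssl1* probes were higher in 4 of 4 pairs under each normalization tried. No probe of the 7 other members and no gene of the purine list was called under any of the 16 alternatives. The excess of *Adssl1* over *Adss* was 0.27 to 0.71 with 1 array left out. Median centring, which moved the median over all tested probes to -0.0911, turned *Adss* (-0.0259), *Adsl* (-0.10) and *Impdh2* (-0.00496). The dimmer *Impdh1* probe gave -0.0413 with quantile normalization and -0.0589 with median centring. With 1 array left out, *Adss* ranged from -0.00915 (without Ac-LDL replicate 3) to 0.24 and *Adsl* from -0.13 to 0.12. Over all tested probes the 7 calls (1 higher and 6 lower with Ac-LDL) became 76 with the replicate block (28 and 48), 55 once slides were blocked (15 and 40), 26 with median centring (1 and 25), 0 without the filter and 0 with the methods' t-test (1039 at an unadjusted p under 0.05). With 1 array left out there were 0 to 15 calls, 15 without control replicate 2, 1 without Ac-LDL replicate 4 and 0 without Ac-LDL replicates 1, 2 or 3 or control replicate 4. The interaction of treatment and slide was called for 5 probes with offset 50, 5 without background correction and 6 with median centring, against 0. The cause of these changes was not tested. With offset 50 the *Gmps* difference was 0.14. The effect of the distance from background on probes of low intensity, such as that of *Gmps* and the 5′ probes, was not tested.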
